A study of Danio rerio with 40 samples.

Results

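The period and cryptochrome genes encode the repressors of the vertebrate circadian clock. Described here are 7 of the 32057 genes in the zebrafish brain count table. They are 2 genes annotated as per1 (ENSDARG00000012499 and ENSDARG00000056885), per2 (ENSDARG00000034503), per3 (ENSDARG00000010519), 2 genes annotated as cry1 (ENSDARG00000011583 and ENSDARG00000045768) and cry2 (ENSDARG00000102403). They were chosen by name and gene ID, and whether each acts as a repressor was not tested. Further cryptochrome genes, among them cry3a, cry3b and cry4, are given below with the other clock genes, where these 3 rose. All 7 passed the filter on low counts. The pair listed as cry1a and cry1b are the 2 genes that the symbol table calls cry1, without a letter, so each is given here with its Ensembl ID, as are the per1 genes.

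The data are RNA-seq counts per gene from 40 whole brains of zebrafish, 1 library per fish, aged 6 months. The fish were siblings, either heterozygous for the naglu allele A603fs (naglu A603fs/+, the unaffected control) or homozygous for it (naglu A603fs/A603fs), a model of mucopolysaccharidosis type IIIB, a lysosomal storage disease of heparan sulfate breakdown. Each genotype received either 10 µg of ferric citrate in 0.85% saline or saline alone by intraperitoneal injection, and brains were collected 7 days later, which gives 4 groups of 10 fish, called heterozygous or homozygous saline fish and heterozygous or homozygous iron fish. Every fish therefore carried at least 1 copy of the mutant allele and had been injected and then kept apart from other fish. Heads were stored in RNAlater before dissection. The labels do not state the time of day of collection.

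In the clock loop, CLOCK and BMAL proteins bind E-box elements and activate transcription of the period and cryptochrome genes. The PER and CRY proteins then accumulate, enter the nucleus and repress CLOCK and BMAL, so that period and cryptochrome transcripts normally rise and fall once a day in almost every zebrafish tissue, brain included. In zebrafish, per2 and cry1a are also known to be induced directly by light.

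The libraries held between 11772789 and 38516546 counts (median 26889029). Of 19 brain marker genes 18 were counted in every library. A list of 33 photoreceptor and pineal genes, markers of tissues that lie next to the brain, was high in 11 of the 40 libraries, with a mean log2 CPM of -0.53 to 0.74 against -1.98 to -1.37 in the others. Each fish also has a number as its title, from 2 to 95, called the fish number here. No label says what this number stands for. The fish were divided into 4 bands of 10 by this number, 2-22, 23-40, 41-57 and 63-95, and into the 20 numbered up to 40 and the 20 numbered above 40. Levels are log2 CPM, the log2 of counts scaled to a common library total, and are compared between fish and not between genes, since gene length was not used.

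All 7 of the chosen period and cryptochrome genes were lower in the fish numbered above 40 than in those numbered up to 40. The fitted log2 differences ran from -1.48 to -0.25 with a median of -0.77, while the median over all 19668 genes tested was -0.01. At an adjusted p under 0.05 in edgeR's quasi-likelihood test, 7 of 7 genes fell, against 3927 genes called among all those tested (20.0%), of which 1977 were higher and 1950 lower. The whole brain was sampled, so fewer cells of a type and less RNA per cell cannot be told apart. No gene of the 7 was called for genotype, for treatment or for sex, with fish number in the model or without it.

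**Figure D1:**
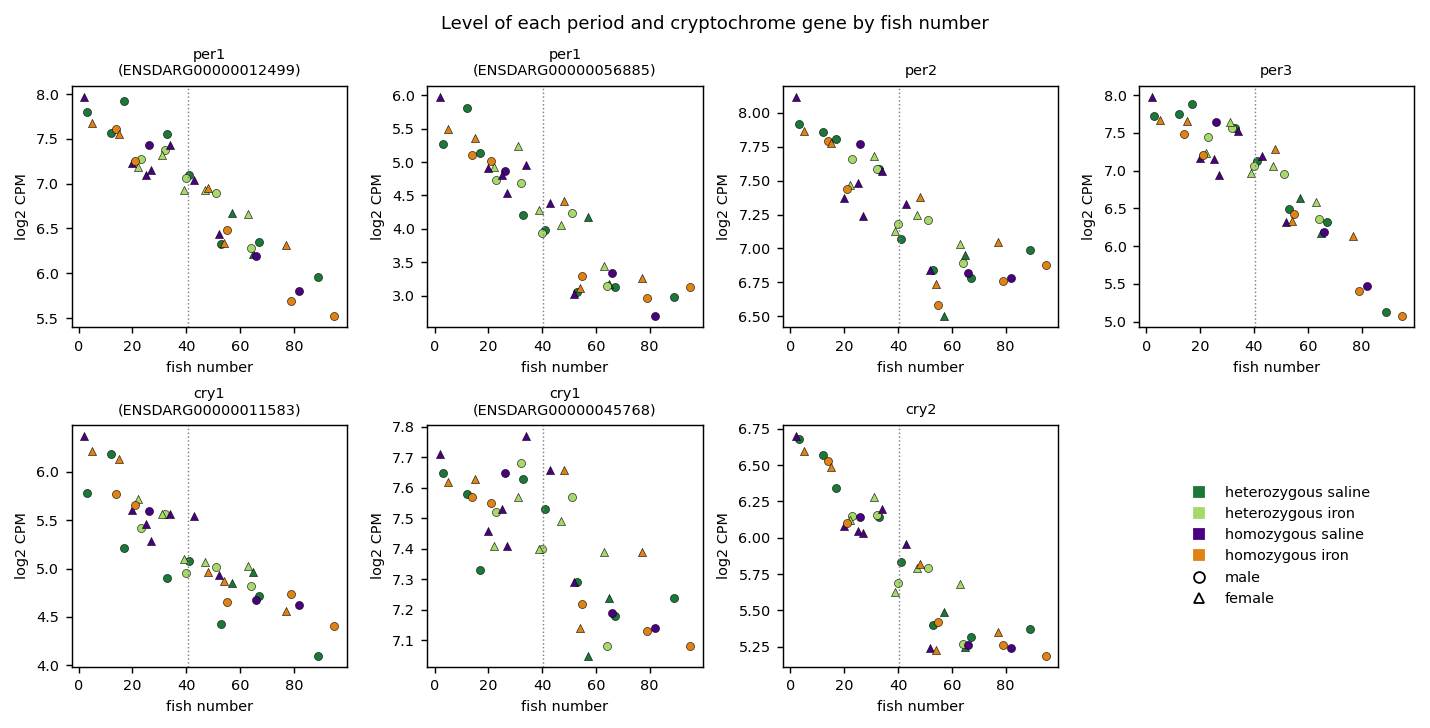
Level of each period and cryptochrome gene (log2 CPM, vertical axis) against fish number (horizontal axis) in the 40 libraries, with 1 point per fish, colours for the 4 groups of genotype and treatment, circles for males and triangles for females. The dotted line lies between fish numbers 40 and 41. Over all 40 fish the levels run downward from left to right in every panel, least steeply for cry1 (ENSDARG00000045768). Above 40 per2 has no clear downward run, and neither has cry1 (ENSDARG00000045768) up to 40.

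Among the period genes, per1 (ENSDARG00000056885) had the largest difference. PER1 is one of the partner proteins through which CRY represses the CLOCK and BMAL complex. Its lowest, median and highest levels were 4.91, 5.20 and 5.98 in band 2-22 and 3.94, 4.71 and 5.24 in band 23-40. They were 3.03, 4.02 and 4.41 in band 41-57 and 2.69, 3.14 and 3.45 in band 63-95. Each band lay lower than the band before it by its median, the neighbouring bands overlapped, and the fish of band 63-95 all lay below every fish numbered up to 40. The fitted log2 fold change above 40 was -1.48 (SE 0.13, edgeR adjusted p = 3.34e-10, n = 20 per side), a 2.79-fold lower level.

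The other per1 gene, ENSDARG00000012499, was more highly counted. Its lowest, median and highest levels were 7.19, 7.59 and 7.97 in band 2-22, 6.93, 7.30 and 7.55 in band 23-40, 6.33, 6.78 and 7.10 in band 41-57 and 5.52, 6.20 and 6.66 in band 63-95. The fish of band 63-95 again all lay below every fish numbered up to 40. The log2 fold change above 40 was -0.99 (SE 0.09, edgeR adjusted p = 3.34e-10), a 1.99-fold lower level. Reads of the per1 genes could be split between paralogs by the counting, so their separate values are uncertain to that extent.

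The gene per3, whose product is a further PER protein, had lowest, median and highest levels of 7.17, 7.66 and 7.98 in band 2-22 and 6.94, 7.49 and 7.65 in band 23-40. They were 6.32, 6.79 and 7.29 in band 41-57 and 5.07, 6.15 and 6.58 in band 63-95. The lowest levels of per3 were those of fish 79, 82, 89 and 95, at 5.40, 5.47, 5.12 and 5.07. All 4 were males. The log2 fold change above 40 was -1.08 (SE 0.12, edgeR adjusted p = 6.87e-08).

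The light-induced gene per2 had lowest, median and highest levels of 7.37, 7.80 and 8.12 in band 2-22, 7.13, 7.58 and 7.77 in band 23-40, 6.50, 6.96 and 7.38 in band 41-57 and 6.76, 6.89 and 7.05 in band 63-95. Its lowest fish, number 57 at 6.50, was in band 41-57, and the medians of the 2 upper bands lay close to each other. The log2 fold change above 40 was -0.67 (SE 0.08, edgeR adjusted p = 8.36e-08).

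Among the cryptochromes, cry2 and cry1 (ENSDARG00000011583) had fitted differences of similar size. CRY proteins are the main transcriptional repressors of the loop. For cry2 the lowest, median and highest levels were 6.08, 6.51 and 6.70 in band 2-22 and 5.63, 6.14 and 6.28 in band 23-40. They were 5.23, 5.64 and 5.96 in band 41-57 and 5.19, 5.26 and 5.68 in band 63-95. The bands overlapped with their neighbours, and in band 63-95 the fish lay close together apart from fish 63 at 5.68. The log2 fold change of cry2 above 40 was -0.77 (SE 0.07, edgeR adjusted p = 8.21e-10).

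The 2 genes annotated as cry1 differed in size of change. For cry1 (ENSDARG00000011583) the lowest, median and highest levels were 5.21, 5.78 and 6.37 in band 2-22, 4.90, 5.44 and 5.59 in band 23-40, 4.43, 4.94 and 5.54 in band 41-57 and 4.10, 4.69 and 5.03 in band 63-95. Its log2 fold change above 40 was -0.77 (SE 0.09, edgeR adjusted p = 5.88e-08).

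For cry1 (ENSDARG00000045768) the levels were 7.33, 7.57 and 7.71 in band 2-22, 7.40, 7.55 and 7.77 in band 23-40, 7.05, 7.39 and 7.66 in band 41-57 and 7.08, 7.19 and 7.39 in band 63-95. The 2 lower bands covered almost the same range for this gene. Its log2 fold change above 40 was -0.25 (SE 0.05, edgeR adjusted p = 0.000635), the smallest of the 7, and the difference in fold change between the cry1 genes was not itself tested. In the fit to the female libraries alone, cry1 (ENSDARG00000045768) gave -0.10 (adjusted p = 0.50) and per2 gave -0.47 (adjusted p = 0.073), and these were the only calls of the 7 genes lost in this comparison over 11 alternative fits, all of which gave a lower level above 40 for each gene. Adding the photoreceptor and pineal level as a covariate, or leaving out the 11 libraries high in it, kept all 7 calls.

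The decline was not even along the numbers. The 5 fish numbered 41, 43, 47, 48 and 51 lay close to fish 39 and 40 and above fish 52 to 55 for all 7 genes, with the closest approach for cry1 (ENSDARG00000011583). Fish 51 had a level of 4.23 for per1 (ENSDARG00000056885), 6.95 for per3 and 5.79 for cry2. Fish 52, from the same home tank, had 3.03, 6.32 and 5.24. The levels did not all stay there. Fish 57 had 4.18, 6.64 and 5.49 for these genes. It lay above fish 52 to 55 for both per1 genes, per3 and cry2, but not for per2 and the cry1 genes. Fish 63 lay above fish 52 to 55 for each of the 7 genes. These fish were picked after the values were seen, and the differences between them were not tested.

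Between the bands on each side of 40, fewer calls were made. In fish 23-40 against 2-22, 0 of 19668 genes (0%) and 0 of the 7 were called, although 1602 genes and 5 of the 7 had an unadjusted p under 0.05. DESeq2 called 16 genes, among them 2 of the 7: cry1 (ENSDARG00000011583), with a log2 fold change of -0.65 (DESeq2 adjusted p = 0.012), and per1 (ENSDARG00000056885), with -0.77 (DESeq2 adjusted p = 0.049). In edgeR the 7 values ran from -0.77 to -0.00, and cry1 (ENSDARG00000045768) had the value nearest 0, with a 95% interval of -0.16 to 0.15. The photoreceptor and pineal list was high in 4 of the 10 libraries of band 2-22 and in 1 of the 10 of band 23-40, with a median log2 fold change of -1.15 over its 20 tested genes, none of them called. With the level of this list as a covariate the 7 values ran from -0.78 to -0.04, and without the 11 high libraries from -0.78 to 0.03, with none of the 7 called in either fit.

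In fish 63-95 against 41-57, 15 genes were called (0.0763%), and 2 of the 7 were among them. The level of per3 fell by 0.84 on the log2 scale (SE 0.17, edgeR adjusted p = 0.0361) and that of per1 (ENSDARG00000012499) fell by 0.60 (SE 0.12, adjusted p = 0.0392). Both calls were lost in 7 of 11 alternative fits, including the fit with home tank as a term, where per3 had -0.75 (adjusted p = 1.0) and per1 (ENSDARG00000012499) -0.48 (adjusted p = 1.0), and the fit without fish 82, 89 and 95, where they had -0.64 (adjusted p = 0.36) and -0.48 (adjusted p = 0.46). The other 5 genes had fitted values from -0.67 for per1 (ENSDARG00000056885) to -0.10 for per2 and were not called.

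**Figure D2:**
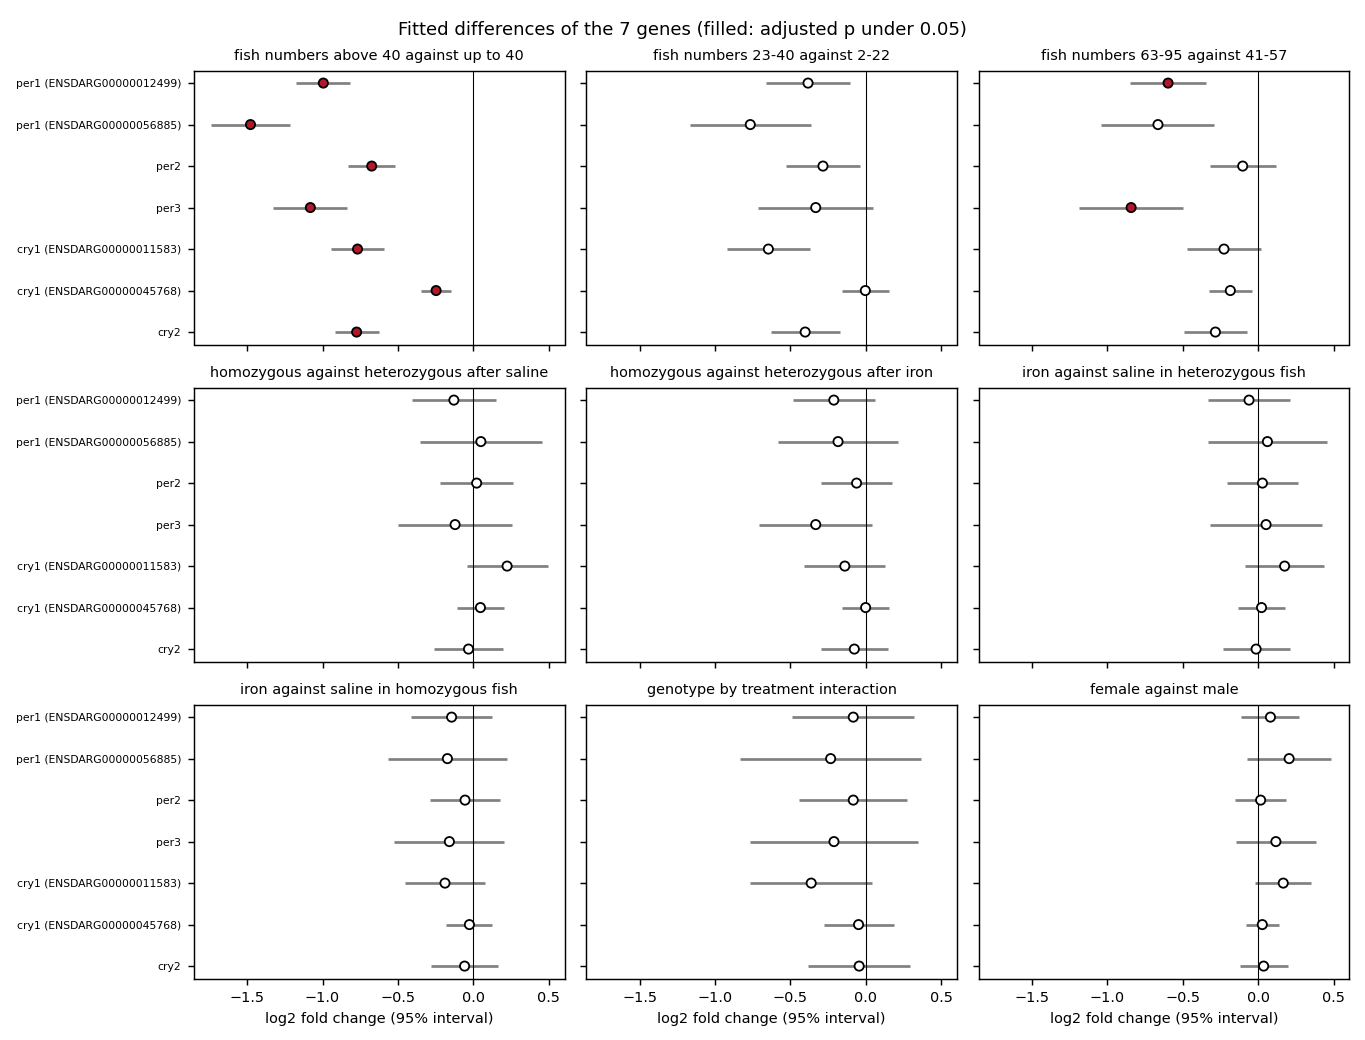
Fitted log2 fold changes of the 7 genes (horizontal axis, with 95% intervals) in 9 comparisons from 1 edgeR model of all 40 libraries, with 1 row per gene and filled points where the adjusted p was under 0.05. All 7 genes are filled and left of 0 in fish above 40 against up to 40, per1 (ENSDARG00000012499) and per3 are filled in fish 63-95 against 41-57, and no point is filled in the 6 comparisons of genotype, treatment and sex.

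Correlations with fish number were computed after group and sex means were removed from the levels, with p-values from 100000 permutations of the libraries, two-sided. Fish number itself was not adjusted, and the groups are unevenly spread over it. Home tank was not removed. Up to 40 the tanks follow fish number in order, so a trend with number and a difference between tanks cannot be told apart there. Above 40 the tanks follow the same order except for fish 82 and 89, so number and tank are largely tied. Without the removal, r was more negative for each gene on each side of 40. Among the 20 fish numbered above 40, per3 had Pearson's r = -0.82 and Spearman's rho = -0.79 with fish number, with an adjusted p of 0.00042 and 0.00056 over a family of 14 (7 genes on each side of 40). For per1 (ENSDARG00000012499) r was -0.78 and rho -0.78, with the same adjusted p-values. Without the 2 fish farthest from the median number, r was -0.74 for each. The gene per2 had r = -0.17 (permutation p = 0.472, adjusted p = 0.509) and rho = -0.26 (permutation p = 0.275, adjusted p = 0.296) and did not pass. For per1 (ENSDARG00000056885), r was -0.53 (permutation, adjusted p = 0.0257) and passed, while rho was -0.44 (permutation, adjusted p = 0.0777) and did not. The cryptochromes passed by r and by rho. Their r and rho were -0.61 and -0.505 for cry1 (ENSDARG00000011583) (permutation, adjusted p = 0.00978 and 0.0419). They were -0.53 and -0.59 for cry2 (permutation, adjusted p = 0.0257 and 0.0242). For cry1 (ENSDARG00000045768) they were -0.475 and -0.53 (permutation, adjusted p = 0.044 and 0.0371).

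Among the 20 fish numbered up to 40, cry1 (ENSDARG00000011583) had r = -0.63 and rho = -0.61 (permutation, adjusted p = 0.00955 and 0.0242), and cry2 had r = -0.63 and rho = -0.54 (permutation, adjusted p = 0.00955 and 0.0358). Without the 2 fish farthest from the median number, r was -0.50 for cry1 (ENSDARG00000011583) and -0.46 for cry2. The gene per1 (ENSDARG00000056885) also passed by both, with r = -0.61 and rho = -0.54 (permutation, adjusted p = 0.00955 and 0.0358). Without those 2 fish its r was -0.51. The values of per3, r = -0.42 (permutation, adjusted p = 0.0794), and of cry1 (ENSDARG00000045768), r = -0.12 (permutation, adjusted p = 0.614), did not pass by r or by rho. For per1 (ENSDARG00000012499) and per2, r passed but rho did not. Their rho was -0.38 (permutation, adjusted p = 0.126) and -0.44 (permutation, adjusted p = 0.0777). Without group and sex removed, per3 had r = -0.60 and passed (permutation, adjusted p = 0.0068). Over all 40 fish, with group and sex removed from the levels, r ran from -0.94 for per1 (ENSDARG00000012499) to -0.72 for cry1 (ENSDARG00000045768). Each had a permutation p of 1e-05, the smallest that 100000 permutations can give.

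As a description, a smooth curve of fish number was fitted (a natural spline with 3 degrees of freedom, the mean level counted among them). It took up 90.6% of the variance over libraries for per1 (ENSDARG00000012499) and for per3, 89.1% for cry2 and 86.4% for per1 (ENSDARG00000056885). The share was 83.0% for cry1 (ENSDARG00000011583), 79.1% for per2 and 55.7% for cry1 (ENSDARG00000045768). Group and sex alone took up 1.4% to 9.7%. Fish number took up more of the variance than group and sex for each of the 7 genes. These shares were not computed for other genes.

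Over all fish, home tank and fish number are partly tied, and up to 40 the tanks follow the numbers in order. Tanks 4 and 5 hold no fish of band 2-22 or band 41-57, tank 2 holds fish of those 2 bands alone, and every tank has fish on both sides of 40. Within each of the 5 home tanks the mean level was lower above 40 for each of the 7 genes. For per1 (ENSDARG00000056885) the differences within tanks ran from -2.08 to -1.22, for per3 from -1.75 to -0.96, for cry2 from -1.11 to -0.65 and for cry1 (ENSDARG00000045768) from -0.36 to -0.16. The lower levels above 40 were present inside every tank.

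**Figure D3:**
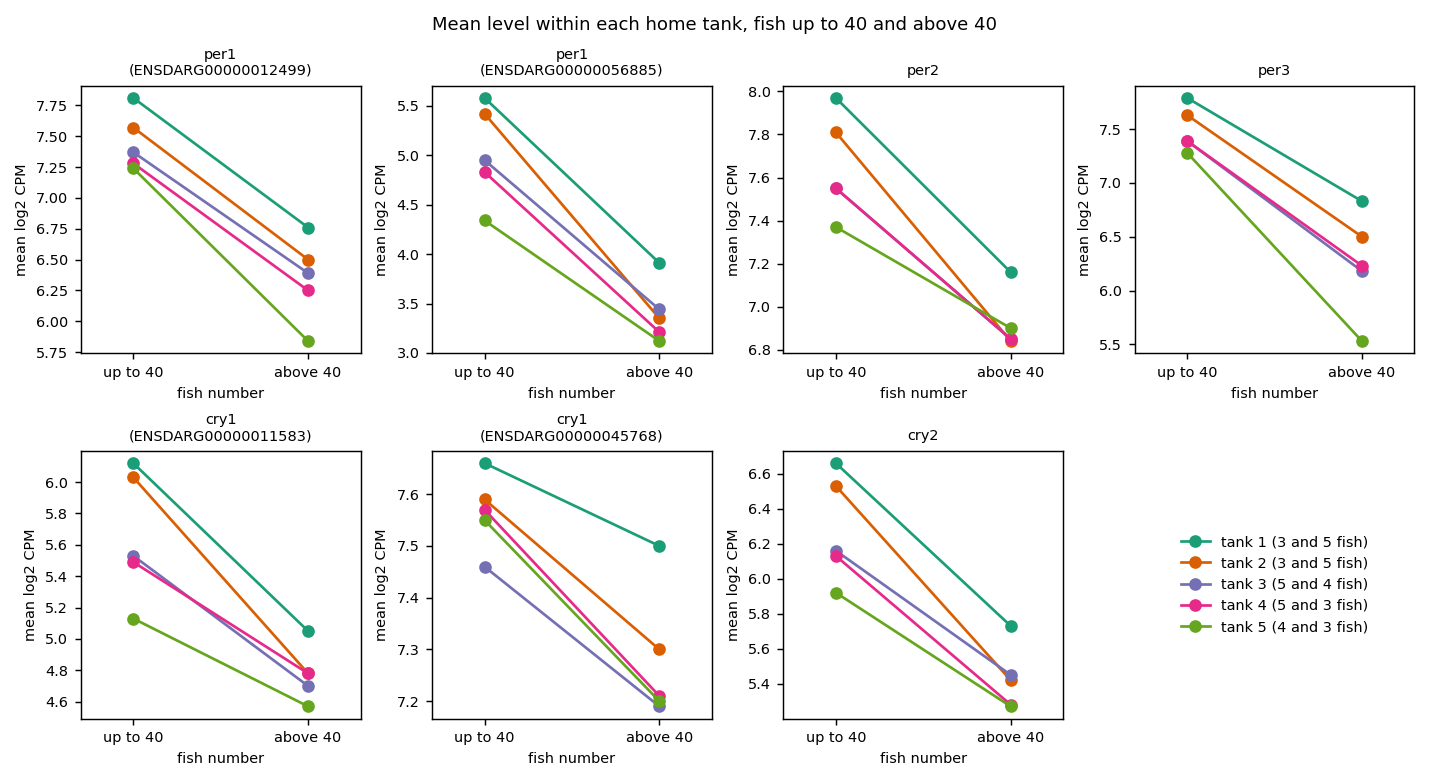
Mean level (log2 CPM, vertical axis) of each gene in the fish of each home tank, for fish numbered up to 40 and above 40 (horizontal axis), with 1 line per tank and the numbers of fish in the legend. Every line slopes down for every gene, and tank 1 has the highest mean on both sides of 40.

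The same direction held in each of the 4 groups and in each sex. In heterozygous iron fish the difference was smaller than in the other groups for each of the 7 genes, for example -0.91 for per1 (ENSDARG00000056885), against -1.69 in heterozygous saline, -1.65 in homozygous saline and -1.88 in homozygous iron fish. This group has 1 fish in band 2-22 and 5 in band 23-40, while homozygous iron fish have 4 and 0, so the groups were not compared at matched numbers and the difference between groups was not tested. In males per3 differed by -1.45 and in females by -0.76, and the males include the 4 lowest fish named above. Band 63-95 holds 7 males and 3 females.

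Loss of naglu was compared within each treatment, with fish number bands and sex in the model. Heterozygous saline fish were 2 females and 8 males, and homozygous saline fish 7 females and 3 males. Genotype and sex are thus partly tied among the saline fish, while each iron group had 5 females and 5 males. After saline, 0 of the 7 genes were called, against 295 genes of all those tested (1.50%). The fitted differences of homozygous from heterozygous fish ran from -0.13 for per1 (ENSDARG00000012499) to 0.22 for cry1 (ENSDARG00000011583), the gene with the smallest p (edgeR adjusted p = 0.392, 95% interval -0.04 to 0.49). The group levels of this gene had a lowest, median and highest value of 4.10, 4.93 and 6.18 in heterozygous saline fish and 4.62, 5.50 and 6.37 in homozygous saline fish. The 2 groups overlapped, and the lowest fish were heterozygous. An earlier analysis of these data doubted the genotype labels of fish 39 and 41, which are included here. Without them 645 genes were called after saline and 329 after iron, and none of the 7 in either.

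After iron, 0 of the 7 were called, against 151 genes (0.768%). All 7 fitted values were below 0, from -0.33 for per3 (edgeR adjusted p = 0.524, 95% interval -0.71 to 0.04) to -0.00 for cry1 (ENSDARG00000045768). The levels of per3 were 6.36, 7.06 and 7.64 (lowest, median and highest) in heterozygous iron fish and 5.07, 6.82 and 7.67 in homozygous iron fish. In band 63-95 the heterozygous iron fish are numbers 63 and 64, and the homozygous iron fish are 77, 79 and 95. The bands therefore do not fully match fish number between these groups. In both genotype comparisons none of the 7 had an unadjusted p under 0.05, and DESeq2 called none of them, while it called 541 genes after saline and 310 after iron.

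Ferric citrate was compared with saline within each genotype. No gene was called in heterozygous fish (0% of those tested), where 551 genes had an unadjusted p under 0.05 in edgeR and DESeq2 called 0. The 7 values ran from -0.06 for per1 (ENSDARG00000012499) to 0.17 for cry1 (ENSDARG00000011583), and the 95% intervals of all 7 lay between -0.33 and 0.46. In homozygous fish no gene was called either (0%), with 426 genes at an unadjusted p under 0.05 in edgeR and 0 called by DESeq2. The 7 values ran from -0.19 to -0.03, with all 95% intervals between -0.56 and 0.22. The intervals contain 0 for every gene and leave room for differences of the size of their bounds.

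The interaction of genotype and treatment asks whether the effect of iron differed between genotypes. It gave 0 calls (0%), with 472 genes at an unadjusted p under 0.05 in edgeR and 0 called by DESeq2. The 7 values were all below 0, and the one with the smallest p was that of cry1 (ENSDARG00000011583), with -0.36 (SE 0.20, edgeR adjusted p = 1.0, 95% interval -0.76 to 0.04). These 7 genes move together between fish, so a shared sign is not 7 independent observations.

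Females were compared with males over all groups. Of all genes tested, 609 were called (3.10%), and of the 7 none was. The values ran from 0.02 for per2 to 0.21 for per1 (ENSDARG00000056885), all above 0, and the smallest adjusted p was 0.334 for cry1 (ENSDARG00000011583), with 0.17 (95% interval -0.02 to 0.35). DESeq2 called 1095 genes and none of the 7, and none of the 7 had an unadjusted p under 0.05 in edgeR.

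Taking fish number out of the model widened the errors. The standard error of per1 (ENSDARG00000056885) in homozygous against heterozygous iron fish was 0.41 without it and 0.20 with it, and for per3 it was 0.32 and 0.18. The value of per1 (ENSDARG00000056885) was 0.04 without fish number and -0.18 with it, neither of them called. No member was called in any of the genotype, treatment or sex comparisons under any of the alternative fits.

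The 7 genes varied together from fish to fish. Over the 21 pairs, with group and sex removed, Pearson's r ran from 0.72 to 0.97 and Spearman's rho from 0.75 to 0.98, and all 21 passed at an adjusted permutation p under 0.05. All 7 genes share a trend with fish number, so the pairs were also computed with the spline of fish number removed, a step added after the data were seen. The median r was then 0.63, and 17 of 21 pairs passed. Pairs among other genes were not computed, so the share of all gene pairs that would pass is not known. The highest was that of per1 (ENSDARG00000012499) with per3 (r = 0.83, rho = 0.84, permutation, adjusted p = 2.33e-05 and 1.91e-05). Without the 2 fish farthest from the median of the adjusted per1 (ENSDARG00000012499) level, this r was 0.82.

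The 4 pairs that did not pass by r all included cry1 (ENSDARG00000011583). Its lowest value was with per1 (ENSDARG00000012499), r = 0.05 and rho = 0.09 (permutation, adjusted p = 0.749 and 0.593). Without the 2 fish farthest from the median of the adjusted per1 (ENSDARG00000012499) level, this r was -0.08. Over the fish numbered up to 40 alone, 20 of 21 pairs passed by r, and over those above 40, 18 did.

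**Figure D4:**
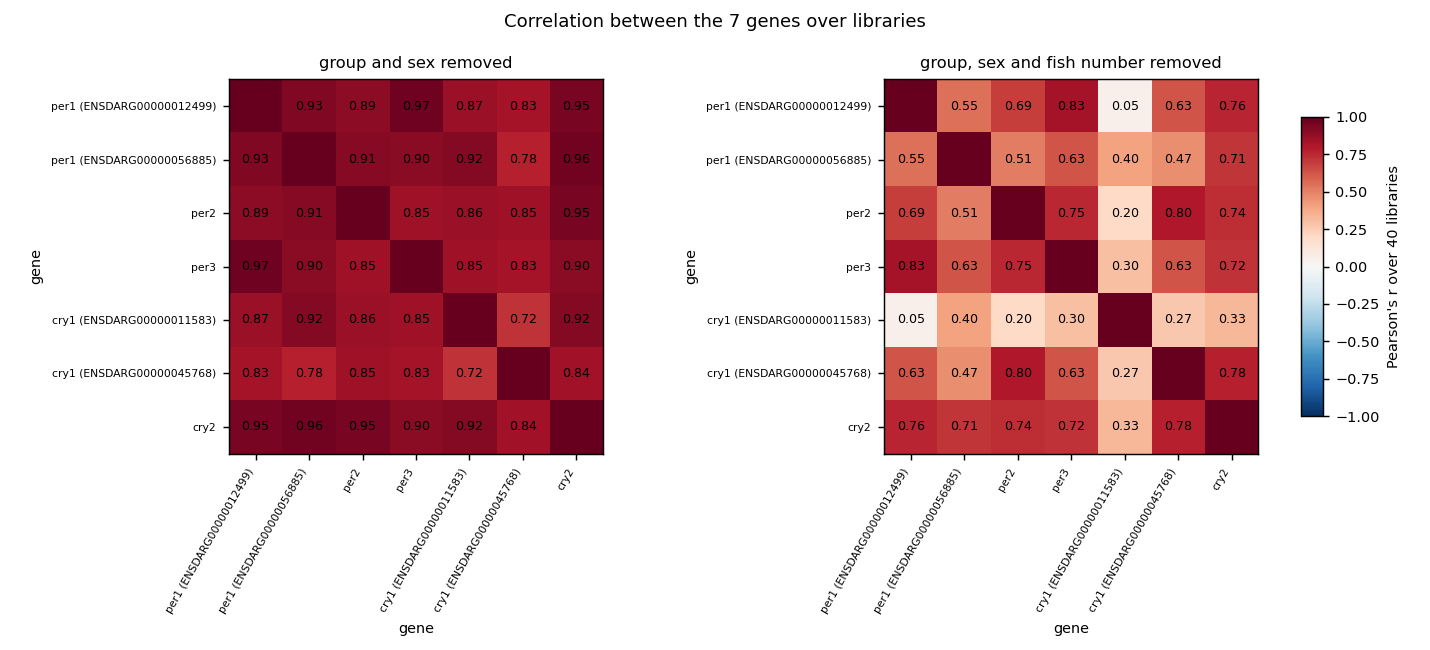
Pearson's r between the 7 genes over 40 libraries, as coloured squares with the value printed in each, with group and sex removed (left) and with the spline of fish number removed as well (right). On the left all values are 0.72 or higher, and on the right the row of cry1 (ENSDARG00000011583) holds the lowest values, down to 0.05.

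The genes most like each member over the 40 libraries, by Pearson's r with group and sex removed, included other clock genes. Closest to per1 (ENSDARG00000056885) were ciarta (r = 0.98), nr1d1 (0.97) and cry2 (0.96). For cry2 they were nr1d1 (0.97), ciarta (0.97) and per1 (ENSDARG00000056885). For per3 they were per1 (ENSDARG00000012499), nr1d2 (0.97) and si:ch211-132b12.7 (0.97), and for per1 (ENSDARG00000012499) they were si:ch211-132b12.7 (0.98), per3 (0.97) and hsf2 (0.97).

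The genes closest to per2 were cry2 (0.95), lonrf1 (0.95) and smu1b (0.94). Those closest to cry1 (ENSDARG00000011583) were per1 (ENSDARG00000056885), cry2 and ciarta, all at 0.92. The nearest to cry1 (ENSDARG00000045768) was znf395 (0.90), followed by si:ch1073-440b2.1 and ip6k1. The most negative gene was ENSDARG00000092354 for per1 (ENSDARG00000012499) at -0.94, for cry2 at -0.92 and for per2 at -0.89. It was bmal1 (ENSDARG00000006791) for per1 (ENSDARG00000056885) at -0.92 and for cry1 (ENSDARG00000011583) at -0.90, and nfil3-5 for per3 at -0.92. Fish number runs through all of these values, and no p is given for them.

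The other genes of the clock were counted by role for fish above 40 against up to 40, where 20.0% of all genes tested were called. In the activator arm 5 of 6 genes rose and none fell, with a median of 0.64. Both genes annotated as bmal1 rose, by 0.63 (ENSDARG00000035732, SE 0.06, edgeR adjusted p = 3.34e-10) and 0.73 (ENSDARG00000006791, SE 0.07). The genes annotated as clock rose by 0.65 (ENSDARG00000011703) and 0.33 (ENSDARG00000003631), and bmal2 by 0.67. The value of npas2, which encodes a relative of CLOCK, was -0.03 and did not pass.

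The genes that regulate bmal1 in turn went both ways. Rev-erb proteins repress it and ROR proteins activate it, and of 10 such genes 3 rose and 2 fell, with a median of 0.11. The Rev-erb genes nr1d1 and nr1d2 had log2 fold changes of -1.67 (SE 0.15, edgeR adjusted p = 5.94e-10) and -0.61 (SE 0.08), and the Rev-erb relative nr1d4b rose by 0.69 (SE 0.13). The ROR genes rorcb and rorca rose by 1.60 (SE 0.15) and 0.54 (SE 0.08).

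Among 10 tested genes of the PAR bZIP and Nfil3 factors, which bind D-box elements, 3 rose and 4 fell, with a median of -0.01. The activators dbpa, dbpb and tefa had log2 fold changes of -0.71, -0.61 and -0.58 (SE 0.06 to 0.07), and nfil3-5, of the family that represses at D-boxes, rose by 1.54 (SE 0.12, edgeR adjusted p = 3.5e-11). The PAR bZIP gene hlf (ENSDARG00000061011) went the other way from those activators and rose by 0.225 (edgeR adjusted p = 0.0275). Of 4 other repressors of the activator arm 3 fell and none rose, with a median of -0.86. These were ciarta, which had the largest fall of all clock genes listed at -1.83 (SE 0.13, edgeR adjusted p = 2.93e-12), ciartb at -1.09 (SE 0.10) and bhlhe41 at -0.63 (SE 0.06), while bhlhe40 had -0.07 and was not called.

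Of 12 genes of kinases, ubiquitin ligases and partners that act on PER and CRY, 8 rose and 1 fell, with a median of 0.12. Among them timeless, which encodes a partner of the clock proteins, rose by 0.16 (SE 0.03, edgeR adjusted p = 0.00128). Of 5 other cryptochrome and photolyase genes all were called: cry5, which encodes a (6-4) photolyase, and cry-dash had log2 fold changes of -1.43 (SE 0.10) and -1.33 (SE 0.11), while cry3a, cry3b and cry4 rose by 0.51, 0.61 and 0.58.

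**Figure D5:**
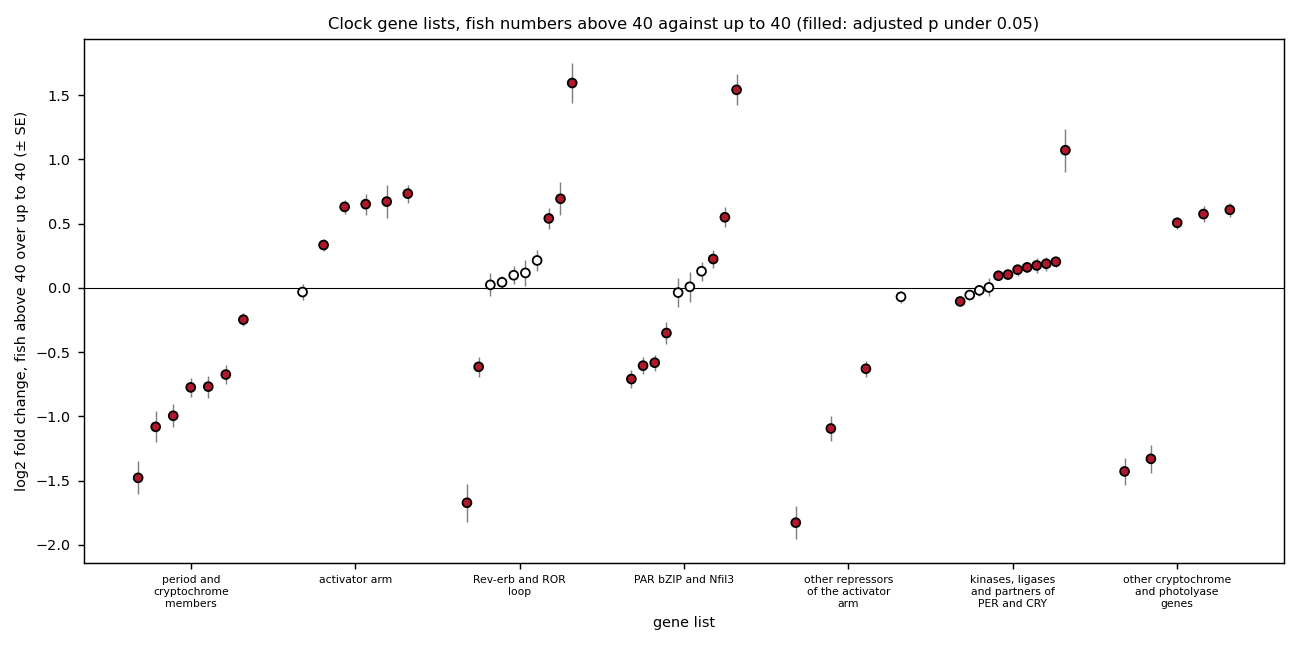
Log2 fold change of fish numbered above 40 over those up to 40 (vertical axis, with standard errors) for the 7 members and for 6 lists of other clock genes (horizontal axis), with 1 point per gene and filled points where the adjusted p was under 0.05. The 7 members and the called genes among the other repressors lie below 0, the called genes of the activator arm lie above 0, and the remaining lists hold called genes on both sides.

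Of the 20 photoreceptor and pineal genes tested 0 were called in this comparison, with a median of 0.03. Their standard errors ran from 0.066 to 0.996 on the log2 scale, so sizeable differences could go uncalled. Of the 20 libraries up to 40, 5 were high in the list, and of the 20 above 40, 6 were. Of 18 brain marker genes tested 3 rose and 3 fell. The neuronal genes snap25 (ENSDARG00000058117) and elavl4 rose by 0.37 and 0.18, and the other snap25 gene (ENSDARG00000020609) by 0.15. The glial and lipid-transport genes fabp7 (ENSDARG00000034650), apoeb and gfap had log2 fold changes of -0.57, -0.48 and -0.45. The other fabp7 gene (ENSDARG00000007697) had 0.09 and was not called. Neither were the neuronal genes syt1, gad1, gad2 and slc17a6 or the glial gene slc1a2 (ENSDARG00000102453). The called markers move with fish number beside the clock genes, and their part in the result was not tested.

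In fish 63-95 against 41-57, where 0.0763% of all genes were called, the calls were few and included 9 genes of the clock lists beside the 2 members. Among them were ciarta with -1.001 (SE 0.18, edgeR adjusted p = 0.0157), nr1d2 with -0.65, bhlhe41 with -0.50, cry-dash with -0.77, dbpa with -0.51 and tefa with -0.44, and on the other side rorcb with 1.02 and nfil3-5 with 1.00. No gene of the table was called in this comparison with home tank added, without fish 82, 89 and 95, with males only, with females only or without the libraries high in photoreceptor genes, so these calls were lost there. In the genotype, treatment, interaction and sex comparisons, none of the genes of the 6 clock lists was called.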

How the data were processed

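Per the labels, polyA RNA of whole brains was sequenced with 1 library per fish, and the authors' deposited table holds unnormalized counts (whole numbers) of 32057 Ensembl genes. Per the submitters' processing notes the authors used fastp, STAR, UMI-tools and featureCounts with the build GRCz11. Those notes and the labels do not state versions, strand handling or whether duplicate molecules were removed, so reads of overlapping, antisense or near-identical genes may be shared. Symbols matched 28988 genes (90.4%), often without the paralog letter, and list names were matched with and without it.

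Tests on the counts used edgeR 4.0.16 under R 4.3.3 (filterByExpr on the 4 groups, 19668 genes kept, TMM scaling, robust quasi-likelihood F test, Benjamini-Hochberg over all genes, threshold 0.05). The model of all 40 libraries had a mean per group, sex and 4 bands of fish number, 8 coefficients and 32 residual degrees of freedom, and it was checked on simulated counts. Levels are log2 CPM with a prior count of 2. DESeq2 1.42.0, other size factors, no filter, other covariates and fewer libraries were alternatives. Correlations used SciPy 1.17.1 and 100000 permutations. Intervals and p-values measure the spread between fish and take each fish as independent. Fish with neighbouring numbers often share a home tank and in places lay at like levels, as described above. Whether this makes the p-values for fish number too small was not tested.

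The members, lists and tests were chosen with earlier results of these data known. The text names all members, up to 4 genes per list with the smallest p above against up to 40, in the other comparisons called genes of those lists, and for each member the 3 genes most alike and the most negative one below -0.8. The genes bmal2, npas2, nr1d4b and cry4 are named beyond this rule. Brain markers, hlf and fish 51, 52, 57 and 63 were named after their values were seen. Some genes that this rule names are not reported here, while the counts include them.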

Additional observations from a re-analysis of the deposited data

Results flagged for a closer look

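In the heterozygous iron group, fish 64 had a cry1 (ENSDARG00000045768) level of 7.08 log2 CPM, and its gap to the nearest of the other 9 fish was 0.516 of the range of the group. This was the only one of 28 sets of 10 values (7 genes in 4 groups) with a sample so far from the others, and chance gives about 1 in 20 such sets. Fish 64 lies in band 63-95, where the highest level of this gene was 7.39.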

How the results depend on the processing

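All 7 genes stayed lower above 40 than up to 40 in 11 alternatives, and the 2 calls lost with female libraries only are given above. In that comparison 3927 genes were called, against 389 with male libraries only, 816 with female libraries only and 4336 with DESeq2. For fish 23-40 against 2-22, with 0 genes and 0 members called, DESeq2 called 16 genes and 2 members and the fit with no terms for group and sex called 1 gene. For fish 63-95 against 41-57, with 15 genes and 2 members called lower, DESeq2 called 25 genes. No filter on low counts gave 9 genes and 0 members, leaving out fish 39 and 41, whose genotype labels an earlier analysis of these data doubted, gave 3 and 0, and each of 5 other settings (home tank added, without fish 82, 89 and 95, males only, females only, without libraries high in photoreceptor genes) gave 0 and 0.

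For homozygous against heterozygous saline fish 295 genes were called, against 541 with DESeq2, 645 without fish 39 and 41, 71 without fish 82, 89 and 95, 8 with males only, 0 with females only or with numbers up to 40, 5 with numbers above 40 and 100 without libraries high in photoreceptor genes. After iron 151 were called, against 310, 329, 88, 8, 0, 0, 18 and 43 under the same settings in the same order (females and numbers up to 40 each giving 0), and 30 with home tank added and 27 with home tank in place of fish number. For females against males 609 were called, against 1095 with DESeq2, 344 without fish 39 and 41, 364 with a spline of fish number, 0 with numbers up to 40, 25 with numbers above 40 and 390 without libraries high in photoreceptor genes. Fits with fewer libraries have less power by construction, yet those without fish 39 and 41 called more genes in both genotype comparisons. The cause of these and the other shifts was not tested.

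No member was called in any genotype, treatment, interaction or sex fit, and 94 of 616 such values changed sign without a call, lying between -0.27 and 0.33. The correlation of cry1 (ENSDARG00000045768) with fish number up to 40 turned from -0.12 to 0.12 without the 2 fish farthest from the median number. That of per3 passed (r = -0.60) without adjustment for group and sex. Fits without libraries high in photoreceptor genes, the correlations over all 40 fish and those with fish number removed were chosen after seeing the data. No paired analysis was possible because each library is a different fish and no label pairs fish across groups.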
